A study of Mus musculus with 12 samples.

Results

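The genes described here are ligands, receptors and adaptors of the tumour necrosis factor (TNF) superfamily, taken from a list of 37 gene symbols. A gene counted as measured where the array's probe table gave a probe set to that symbol alone. This held for 36 of the 37 genes, of 19938 genes measured in all: 13 ligands, 13 receptors without a death domain, 5 receptors with a death domain and 5 of 6 adaptors. Traf3 was not analysed here. Each of the 36 had 1 probe set, so no choice between probe sets was needed. The RNA came from CD4+ T cells of C57Bl/6 donor mice that had divided at least 2 times in B6D2F1 host mice, a transfer that starts a graft-versus-host response. Host mice were 10 to 12 weeks old. Donor cells were recovered from spleen and lymph node on day 2 (48 hr) by CD4 beads and a sort on dilution of CFSE dye. The 3 groups of 4 arrays, labelled as biological replicates, differed in the intraperitoneal injections of the host. Vehicle hosts were injected on days 0 and 1. TCDD hosts received 15 µg/kg once, on day 0. Hosts of the Cl-BBQ group were given 2 mg/kg on each of day 0 and day 1. All groups shared the donor strain, the host strain and the transfer, and the whole host was exposed, not the donor cells alone. TCDD is a persistent dioxin, and Cl-BBQ, like it, is a ligand of the aryl hydrocarbon receptor (AhR), which turns on genes such as Cyp1b1.

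Ligands of the TNF superfamily are mostly membrane proteins that act as trimers on receptors of a neighbouring cell, and some are shed. Receptors with a death domain can start cell death through adaptors such as TRADD and FADD; the others bind TRAF proteins, which lead to NF-κB and stress kinases. On activated CD4+ T cells the family is known for help to B cells and dendritic cells (CD40L), for co-stimulation (OX40, 4-1BB, GITR, CD27), for lymphoid tissue organisation (lymphotoxins, RANKL) and for deletion of activated cells (Fas ligand).

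The promoters of 6 ligands are shown: Lta, which fell with TCDD; Tnf, Tnfsf8, Tnfsf11 and Tnfsf14, which were lower with TCDD at an unadjusted p under 0.05 without passing the adjusted threshold; and Ltb, the gene next to Tnf, which passed neither. Each window runs 5′ to 3′ on the gene's own strand, from 250 bases before to 50 bases after the annotated start, in RefSeq's mouse build GRCm38.p6. The windows are chr17:35205302-35205601 (minus strand) for Lta, chr17:35201958-35202257 (minus) for Tnf, chr17:35194257-35194556 (plus) for Ltb, chr4:63861235-63861534 (minus) for Tnfsf8, chr14:78307994-78308293 (minus) for Tnfsf11 and chr17:57194132-57194431 (minus) for Tnfsf14. Capitals mark matches, on either strand, to the AhR core motif GCGTG, the TATA motif TATAAA or the NF-κB consensus motif.
Lta: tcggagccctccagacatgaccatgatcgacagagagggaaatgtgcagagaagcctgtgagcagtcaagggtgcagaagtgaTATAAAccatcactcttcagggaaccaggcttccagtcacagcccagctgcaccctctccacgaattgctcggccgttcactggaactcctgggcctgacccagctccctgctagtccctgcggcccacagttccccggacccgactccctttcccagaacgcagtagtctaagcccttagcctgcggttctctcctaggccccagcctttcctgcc
Tnf: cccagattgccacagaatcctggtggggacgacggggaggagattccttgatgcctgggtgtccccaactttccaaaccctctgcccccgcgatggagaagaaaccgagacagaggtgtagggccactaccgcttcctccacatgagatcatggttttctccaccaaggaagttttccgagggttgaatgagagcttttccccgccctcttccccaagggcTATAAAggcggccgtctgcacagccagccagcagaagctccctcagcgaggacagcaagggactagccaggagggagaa
Ltb: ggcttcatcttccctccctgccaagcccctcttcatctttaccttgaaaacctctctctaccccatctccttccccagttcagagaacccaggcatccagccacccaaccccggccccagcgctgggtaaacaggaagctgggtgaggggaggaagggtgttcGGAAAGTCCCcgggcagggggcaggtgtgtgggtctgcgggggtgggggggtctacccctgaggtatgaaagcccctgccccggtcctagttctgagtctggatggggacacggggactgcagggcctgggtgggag
Tnfsf8: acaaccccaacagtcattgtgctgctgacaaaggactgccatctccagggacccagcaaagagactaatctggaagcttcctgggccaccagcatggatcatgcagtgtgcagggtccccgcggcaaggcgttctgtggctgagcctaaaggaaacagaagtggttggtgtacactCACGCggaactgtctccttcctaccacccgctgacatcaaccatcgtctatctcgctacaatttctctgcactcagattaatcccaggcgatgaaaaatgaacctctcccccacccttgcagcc
Tnfsf11: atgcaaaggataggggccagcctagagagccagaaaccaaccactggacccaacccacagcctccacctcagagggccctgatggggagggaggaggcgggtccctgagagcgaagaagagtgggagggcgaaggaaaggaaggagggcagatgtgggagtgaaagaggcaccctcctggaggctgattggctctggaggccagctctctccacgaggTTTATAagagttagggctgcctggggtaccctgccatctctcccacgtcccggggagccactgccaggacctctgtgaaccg
Tnfsf14: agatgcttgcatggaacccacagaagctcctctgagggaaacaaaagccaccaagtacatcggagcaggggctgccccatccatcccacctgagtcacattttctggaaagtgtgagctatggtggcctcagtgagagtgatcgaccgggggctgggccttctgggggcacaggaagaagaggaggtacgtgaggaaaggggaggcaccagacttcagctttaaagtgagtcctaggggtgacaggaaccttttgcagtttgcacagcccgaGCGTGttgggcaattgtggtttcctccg

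The AhR core motif matched once in Tnfsf8, 74 bases before the start, and once in Tnfsf14, 22 bases after it. TATAAA matched in Lta, Tnf and Tnfsf11, at 167, 29 and 32 bases before the start. The NF-κB motif matched in Ltb alone of these 6, 87 bases before the start. The matches in Tnfsf11, Tnfsf8 and Ltb were on the strand opposite to the gene. Those in Lta, Tnf and Tnfsf14 were on the gene's own strand. Promoter windows were held for 28 of the 36 measured genes. Of the 28, 12 held GCGTG, which 35.2% of all 27025 genes with a window did; 4 (Ltb, Tnfrsf8, Tnfrsf9 and Tnfrsf25) held the NF-κB motif, against 9.6% of all genes; and 3 held TATAAA, against 15.7%. The TATA motif was added after the expression values were known. The motifs do not overlap in these windows, and a match is a run of letters, not a measured binding site.

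Values below are log2 intensities of robust multi-array average (RMA) processing, and differences are of log2 means. A gene was called at an adjusted p under 0.05 in limma, with Benjamini-Hochberg adjustment over all genes. The array medians ran from 7.11 to 7.24. Cd4 and Cd3e, 2 CD4 T cell markers, lay at 12.44 ± 0.06 and 12.92 ± 0.02 with vehicle (SD, n = 4). None of the 8 measured was called in any comparison, beside 1.24% (TCDD), 0.196% (Cl-BBQ) and 0.0150% (TCDD against Cl-BBQ) of all genes. The CD8 marker Cd8a read 8.47 in vehicle replicate 2 and 6.96 to 7.03 in the other vehicle arrays. Cd8b1, the other CD8 marker, lay above the array medians throughout. It read 9.73 to 10.13 with vehicle, 9.57 to 9.88 with TCDD and 9.68 to 10.07 with Cl-BBQ. The summed linear intensity of 7 NK markers was 1203 to 2276 with vehicle, 1715 to 2511 with TCDD and 1722 to 2363 with Cl-BBQ. Of the 7, 5 lay lower with TCDD and 6 with Cl-BBQ. Nkg7, the brightest of them, weighs most in the sum and lay 0.53 higher with each compound. Its vehicle mean was 10.11, and that of the next, Tyrobp, was 7.34. No CD8 or NK marker was called. Purity was not tested. Cyp1b1, a known AhR target, was at 6.25 to 6.57 with vehicle and at 9.67 to 9.92 with TCDD. With Cl-BBQ it was at 8.24, 7.90, 5.93 and 7.89, so the array of replicate 3 lay below all vehicle arrays and apart from its group; the ligands, receptors, adaptors and called signalling genes are therefore also compared with vehicle without it.

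The first comparison sets TCDD against vehicle. Of the 36 genes, 0 rose and 2 fell, Tnfsf4 and Lta, both ligands. Over all genes 1.24% were called and 0.366% were called lower. The other members low with TCDD were ligands too: 6 of 13 ligands had a lower level at an unadjusted p under 0.05 (4.00% of all genes did), and 0 of 23 receptors and adaptors did. At the same threshold 0 of the 36 were higher (4.69% of all genes). Both counts depended on the setting. The lower count was 5 without vehicle replicate 2 or 4 or TCDD replicate 1 or 3, where Tnfsf14 missed the threshold. It was 7 without TCDD replicate 4, where Fasl was added. The receptor gene Tnfrsf18 was higher at that threshold after quantile normalization and with array weights. It was so too without vehicle replicate 1, TCDD replicate 1 or Cl-BBQ replicate 1. Tnfsf10 joined it after quantile normalization and without vehicle replicate 1, which made 2 higher. The arrays of TCDD lay wholly below those of vehicle in 4 members, all ligands (Lta, Tnfsf11, Tnfsf8 and Tnfsf14; 2.65% of all genes), and wholly above them in 0 (3.15% of all genes). The median difference was -0.25 over the 13 ligands, 0.03 over the 18 receptors and 0.02 over the 5 adaptors, with 0.00 over all genes.

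**Figure D1:**
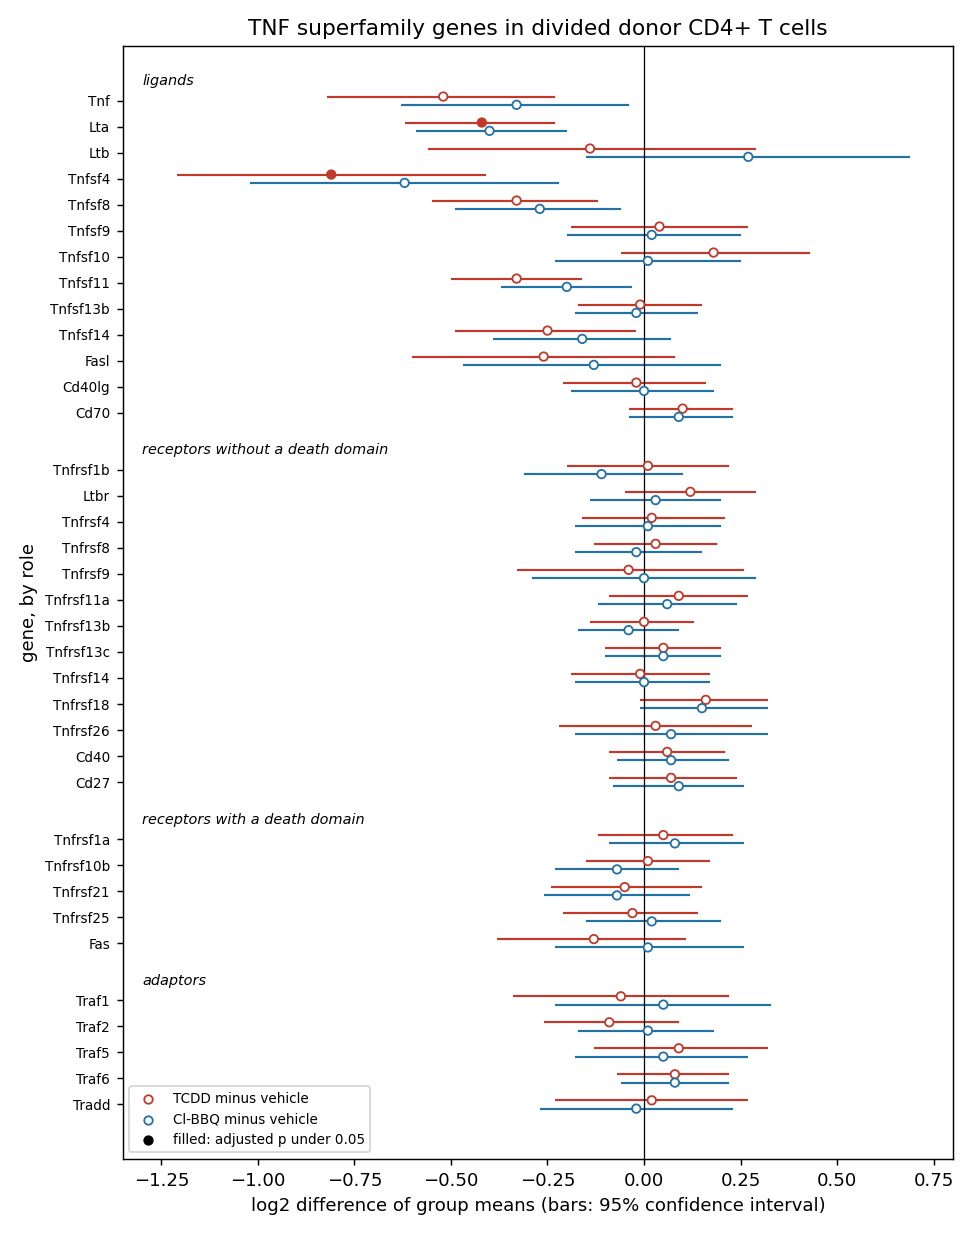
Difference of each measured gene from vehicle (log2, horizontal axis), by role, for TCDD (red) and Cl-BBQ (blue), as group mean differences with 95% confidence intervals from limma, 4 arrays per group. The intervals that lie wholly below 0 belong to ligands, from -0.81 for Tnfsf4 with TCDD, while receptors and adaptors lie between -0.13 and 0.16; filled points mark the 2 called genes.

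Tnfsf4 encodes OX40 ligand, which co-stimulates T cells through OX40 and is made by antigen-presenting cells and by some activated T cells (probe set 10351095). Its level was 8.73, 9.26, 8.54 and 8.82 in the vehicle arrays, 7.83, 8.60, 7.64 and 8.04 with TCDD and 7.96, 8.61, 8.16 and 8.16 with Cl-BBQ. Replicate 2 was the highest array of every group, and with either compound it lay just above vehicle replicate 3, while the other treated arrays lay below all vehicle arrays. The TCDD and Cl-BBQ arrays overlapped. TCDD lowered Tnfsf4 1.75-fold, by a log2 difference of -0.81 (95% interval -1.21 to -0.41; limma adjusted p = 0.0488). This is the lower 0.0702 percentile of the differences of all genes. The call sat near the threshold: it was lost without each vehicle or TCDD array in turn, save vehicle replicate 3 and TCDD replicate 2 (limma adjusted p up to 0.217), and also without Cl-BBQ replicate 3 or 4. It was lost too with array weights (limma adjusted p = 0.104), without an intensity trend (0.07) and with every probe set tested alone (0.0546). The difference itself stayed between -1.0 and -0.67.

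Because B cells and dendritic cells also make OX40 ligand, their markers are given beside it. Of 11 B and plasma cell markers, Cd22 (-0.95; limma adjusted p = 0.00364) and Bank1 (-0.48; adjusted p = 0.0392) fell with TCDD and 9 were not called. Of the 11, 6 lay lower and 5 higher, among them Cd79b at 0.23 (limma adjusted p = 0.459). The summed linear intensity of that list was 1177 to 1406 with vehicle, 1089 to 1189 with TCDD and 1118 to 1198 with Cl-BBQ. Of 14 myeloid and dendritic markers Cd74 fell (-0.43; limma adjusted p = 0.0297), 7 lay lower and 7 higher, Siglech by 0.16 (adjusted p = 0.439), and the summed intensity was 1208 to 1333, 1226 to 1253 and 1214 to 1317. RMA values have no 0, so no marker was at 0; Ms4a1, Cr2, Fcer2a and Ebf1 of the B cell list, and 7 of the 14 myeloid markers, among them Itgax and H2-Aa, lay in the lowest 25% of all genes by mean level. The part of such cells in the Tnfsf4 difference was not tested. In bulk RNA, fewer cells of a type and less RNA per cell cannot be told apart.

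Lta encodes lymphotoxin α, a secreted ligand of both TNF receptors that also joins lymphotoxin β on the cell surface (probe set 10450508). Its level was 8.48, 8.37, 8.0 and 8.18 with vehicle, 7.85, 7.90, 7.76 and 7.84 with TCDD and 7.76, 7.87, 7.94 and 7.86 with Cl-BBQ. Every treated array of either compound lay below every vehicle array, and the vehicle arrays were spread more widely (SD 0.21, against 0.06 and 0.07). Lta fell 1.34-fold with TCDD (log2 difference -0.42, interval -0.62 to -0.23; limma adjusted p = 0.0303). The call was lost without each vehicle or TCDD array in turn except vehicle replicate 3 (limma adjusted p up to 0.132), with the difference between -0.51 and -0.35.

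**Figure D2:**
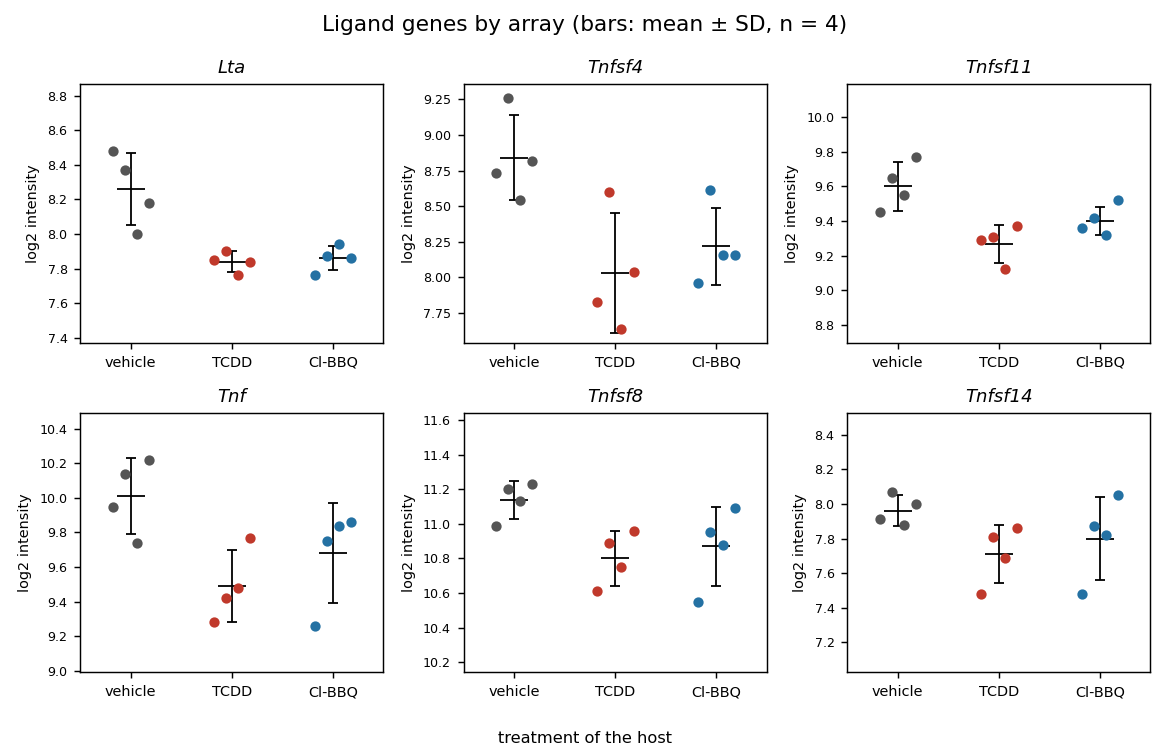
Log2 intensity (vertical axis) of 6 ligand genes in each array, by treatment of the host; points are arrays in order of replicate number, and bars give the mean ± SD of 4 arrays. Each vertical axis is centred on its own gene's range, with a smallest span shared by all panels. In Lta all 8 arrays of treated hosts lie below the 4 vehicle arrays, while in Tnf and Tnfsf4 the groups overlap.

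Tnfsf11 encodes RANK ligand, known for osteoclast and lymph node development and for survival signals to dendritic cells (probe set 10421737). Its arrays read 9.45, 9.65, 9.55 and 9.77 with vehicle, 9.29, 9.31, 9.12 and 9.37 with TCDD and 9.36, 9.42, 9.32 and 9.52 with Cl-BBQ. The TCDD arrays lay below all vehicle arrays, whereas Cl-BBQ replicate 4 lay above the lowest of them. The log2 difference with TCDD was -0.33 (interval -0.50 to -0.16) and missed the threshold (limma adjusted p = 0.0678). Of 21 alternative settings, Tnfsf11 was called in 3.

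Tnf encodes TNF itself, the inflammatory cytokine that names the family (probe set 10450501). Vehicle arrays lay at 9.95, 10.14, 9.74 and 10.22, TCDD arrays at 9.28, 9.42, 9.48 and 9.77 and Cl-BBQ arrays at 9.26, 9.75, 9.84 and 9.86. Vehicle replicate 3 was the lowest of its group, and TCDD replicate 4 and Cl-BBQ replicates 2, 3 and 4 lay above it. The log2 difference with TCDD was -0.52 (interval -0.82 to -0.23), second in size to Tnfsf4 among the 36, without a call (limma adjusted p = 0.104). Of 21 alternative settings, Tnf was called in 5.

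Tnfsf8 encodes CD30 ligand, the partner of CD30 on activated lymphocytes (probe set 10513729). It read 10.99, 11.20, 11.13 and 11.23 with vehicle, 10.61, 10.89, 10.75 and 10.96 with TCDD and 10.55, 10.95, 10.88 and 11.09 with Cl-BBQ. TCDD arrays lay below all vehicle arrays by a narrow margin, with a log2 difference of -0.33 (interval -0.55 to -0.12; limma adjusted p = 0.186). Tnfsf14 encodes LIGHT, which binds HVEM and the lymphotoxin β receptor (probe set 10452307). Its arrays read 7.91, 8.07, 7.88 and 8.0 with vehicle, 7.48, 7.81, 7.69 and 7.86 with TCDD and 7.48, 7.87, 7.82 and 8.05 with Cl-BBQ. The TCDD arrays again lay just below those of vehicle, with a difference of -0.25 (interval -0.49 to -0.02; limma adjusted p = 0.5).

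In the comparison of Cl-BBQ with vehicle, of the 36 genes 0 were called, against 0.196% of all genes; at an unadjusted p under 0.05, 5 were lower (3.80% of all genes) and 0 higher (4.11%). The 5 were Lta, Tnfsf4, Tnfsf8, Tnfsf11 and Tnf, all of which are also among the 6 lower ligands of TCDD; the comparisons share the vehicle arrays. The 5 became 3 (Lta, Tnfsf4 and Tnfsf8) without vehicle replicate 2 or 4, and 4 without Cl-BBQ replicate 3, where Tnfsf11 missed the threshold. With array weights 4 were lower, as Tnf missed it, and 1 (Tnfrsf18) was higher. Without Cl-BBQ replicate 4, 6 were lower, with Tnfsf14 added. Without Cl-BBQ replicate 1, 3 were lower (Lta, Tnfsf4 and Tnfsf11) and 3 higher (Ltb, Tnfrsf18 and Cd27). The Cl-BBQ arrays lay wholly below vehicle in 1 member, Lta (1.58% of all genes), and wholly above in 0 (2.27%). The median difference was -0.13 over the ligands, 0.02 over the receptors and 0.05 over the adaptors, with 0.01 over all genes.

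The log2 difference with Cl-BBQ was -0.40 for Lta (interval -0.59 to -0.20; limma adjusted p = 0.11) and -0.62 for Tnfsf4 (interval -1.02 to -0.22; limma adjusted p = 0.323). It was -0.33 for Tnf (interval -0.63 to -0.04), -0.27 for Tnfsf8 (interval -0.49 to -0.06), -0.20 for Tnfsf11 (interval -0.37 to -0.03) and -0.16 for Tnfsf14 (interval -0.39 to 0.07). Without Cl-BBQ replicate 3, whose Cyp1b1 stood apart, these were -0.42 for Lta, -0.60 for Tnfsf4, -0.39 for Tnf, -0.28 for Tnfsf8, -0.17 for Tnfsf11 and -0.17 for Tnfsf14, and 0 members were called. The receptors and adaptors then ran from -0.12 to 0.15. The differences of TCDD from Cl-BBQ without that array were -0.43 for Ltb, -0.21 for Tnfsf4, -0.16 for Tnfsf11, -0.13 for Tnf and 0.00 for Lta. Lta was called without vehicle replicate 3 (limma adjusted p = 0.0403) and after quantile normalization (limma adjusted p = 0.0412).

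The comparison of TCDD with Cl-BBQ is between compounds at their own doses and schedules, not at a matched dose. None of the 36 was called by limma, against 0.0150% of all genes, and 0 had an unadjusted p under 0.05 (2.99% of all genes); in 0 did the arrays of the compounds separate (2.04%). With the replicate number as a block 0 members were called and 2, Ltb and Tnfsf4, were lower with TCDD at an unadjusted p under 0.05. Without Cl-BBQ replicate 1, 6 were lower at that threshold (Ltb, Tnf, Tnfsf14, Fas, Traf1 and Traf2) and 0 were called by limma. That array had the lowest weight of the 12, 0.432, where array weights were estimated; with those weights 2, Ltb and Tnf, were lower at that threshold. Ltb alone was so after quantile normalization or without TCDD replicate 4, Tnfsf4 alone was so without TCDD replicate 2, and Tnfrsf1b alone was higher without TCDD replicate 1. The intervals leave room for differences of moderate size: the log2 difference was -0.19 for Tnfsf4 (interval -0.59 to 0.21), -0.19 for Tnf (interval -0.48 to 0.11), -0.13 for Tnfsf11 (interval -0.31 to 0.04) and -0.02 for Lta (interval -0.22 to 0.17).

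The widest gap between the compounds among the members was in Ltb, which encodes lymphotoxin β, the membrane partner of lymphotoxin α (probe set 10444752). It read 10.55, 10.62, 10.23 and 10.10 with vehicle, 9.92, 10.40, 10.16 and 10.49 with TCDD and 9.97, 10.90, 10.56 and 11.15 with Cl-BBQ. The Cl-BBQ arrays spread over more than the range of both other groups, and the log2 difference of TCDD from Cl-BBQ was -0.40 (interval -0.82 to 0.02; unadjusted p = 0.0593 and adjusted p = 1 in limma). Ltb, Tnf and Lta are neighbours in the RefSeq gene order. Beside the differences of -0.52 for Tnf and -0.42 for Lta with TCDD, that of Ltb was -0.14 (interval -0.56 to 0.29).

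Other ligands did not pass the test in either comparison with vehicle. Tnfsf14 shares its stretch of genes with Cd70 and Tnfsf9, which differed from vehicle by 0.10 and 0.04 with TCDD. Cd70, the ligand of CD27, was dim (6.06 ± 0.06 with vehicle) and the only one in the lowest 25% of all genes by mean level. Fasl, which encodes Fas ligand, read 8.69, 8.90, 8.62 and 8.53 with vehicle and 8.07, 8.41, 8.51 and 8.73 with TCDD, a difference of -0.26 (interval -0.60 to 0.08). Tnfsf10, which encodes the death ligand TRAIL, had the largest positive difference of the 36 with TCDD, 0.18 (interval -0.06 to 0.43; 8.88 ± 0.17 against 8.70 ± 0.22). Cd40lg, which encodes CD40 ligand, the signal by which T cells help B cells, differed by -0.02 (interval -0.21 to 0.16), from 11.04 ± 0.15 to 11.02 ± 0.11. Tnfsf9, the ligand of 4-1BB, and Tnfsf13b, the B cell survival factor BAFF, differed by 0.04 and -0.01.

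None of the 18 receptors was called by limma with either compound, where 1.24% (TCDD) and 0.196% (Cl-BBQ) of all genes were. At an unadjusted p under 0.05, 0 of the 18 were lower or higher, beside 4.00% and 4.69% of all genes with TCDD and 3.80% and 4.11% with Cl-BBQ. Their differences from vehicle ran from -0.13 to 0.16 with TCDD and from -0.11 to 0.15 with Cl-BBQ; the 5th and 95th percentiles of all genes were -0.17 and 0.17 with TCDD. The receptors of the lower ligands come first. Tnfrsf4, which encodes OX40, read 10.36, 10.59, 10.20 and 10.41 with vehicle, 10.26, 10.34, 10.52 and 10.54 with TCDD and 10.46, 10.34, 10.52 and 10.26 with Cl-BBQ; its difference with TCDD was 0.02 (interval -0.16 to 0.21), beside -0.81 for its ligand. Tnfrsf11a, which encodes RANK, differed by 0.09 (interval -0.09 to 0.27), and Tnfrsf8, which encodes CD30, by 0.03 (interval -0.13 to 0.19). Both had low levels, 6.89 ± 0.12 and 6.98 ± 0.13 with vehicle, below the lowest array median of 7.11. For TNF and lymphotoxin α, the receptor genes Tnfrsf1a and Tnfrsf1b differed by 0.05 (interval -0.12 to 0.23) and 0.01 (interval -0.20 to 0.22). For LIGHT, Tnfrsf14, which encodes HVEM, differed by -0.01 (interval -0.19 to 0.17) and Ltbr, the lymphotoxin β receptor, by 0.12 (interval -0.05 to 0.29).

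**Figure D3:**
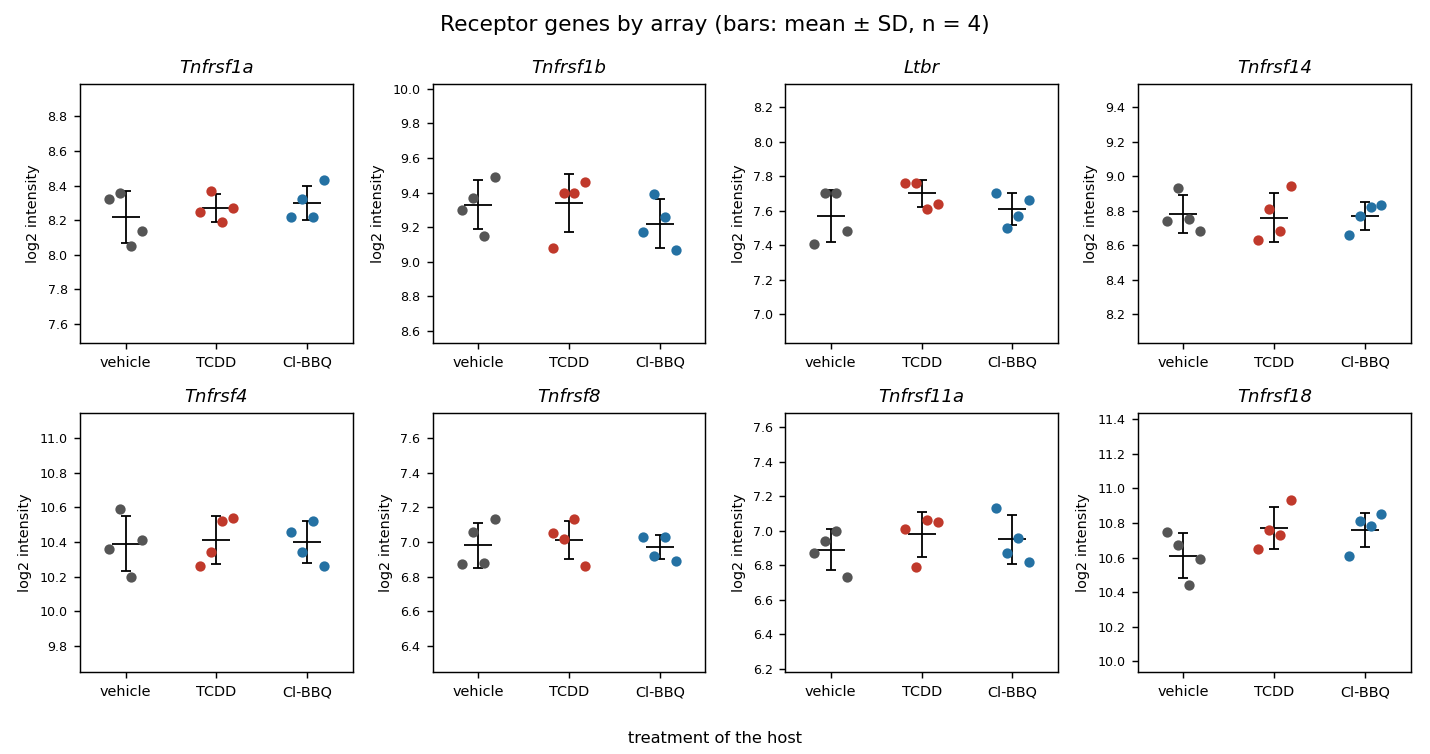
Log2 intensity (vertical axis) of 8 receptor genes in each array, by treatment of the host; points are arrays in order of replicate number, and bars give the mean ± SD of 4 arrays. Each vertical axis is centred on its own gene's range, with a smallest span shared by all panels. The groups overlap in every panel, also in Tnfrsf18, which had the largest positive difference of the receptors (0.16 with TCDD).

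The receptor nearest to the threshold was Tnfrsf18, which encodes GITR, a co-stimulatory receptor high on regulatory T cells. It read 10.75, 10.67, 10.44 and 10.59 with vehicle, 10.65, 10.76, 10.73 and 10.93 with TCDD and 10.61, 10.81, 10.78 and 10.85 with Cl-BBQ. The differences were 0.16 (interval -0.01 to 0.32; unadjusted p = 0.063, adjusted p = 0.624 in limma) and 0.15 (interval -0.01 to 0.32). With Cl-BBQ too, the unadjusted p of Tnfrsf18 fell under 0.05 after quantile normalization, with array weights and without vehicle replicate 1 or Cl-BBQ replicate 1. Tnfrsf9, which encodes 4-1BB, was at 10.60 ± 0.20 with vehicle and 10.57 ± 0.24 with TCDD, and Cd27, a co-stimulatory receptor of naive and memory cells, at 12.39 ± 0.07 and 12.46 ± 0.11. Among receptors with a death domain, Fas differed by -0.13 with TCDD (interval -0.38 to 0.11) and by 0.01 with Cl-BBQ. Tnfrsf25 (DR3), Tnfrsf21 (DR6) and Tnfrsf10b, the mouse TRAIL receptor, differed by -0.03, -0.05 and 0.01 with TCDD. Tnfrsf26 belongs to a cluster of similar mouse genes with Tnfrsf22 and Tnfrsf23, so its probes may read more than 1 of them; it was at 9.81 ± 0.26 with vehicle and differed by 0.03. Tnfrsf23, which is outside the 36, differed by 0.30 with TCDD (interval 0.06 to 0.54; limma adjusted p = 0.398). The receptors known mainly from B cells and antigen-presenting cells, Cd40, Tnfrsf13b (TACI) and Tnfrsf13c (BAFF receptor), differed by 0.06, 0.00 and 0.05 with TCDD.

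Of the adaptors, none of 5 was called by limma (1.24% of all genes with TCDD, 0.196% with Cl-BBQ), and 0 had an unadjusted p under 0.05 (4.00% lower and 4.69% higher over all genes with TCDD); with 5 genes these counts are near the background. Traf1, which NF-κB induces and which binds several co-stimulatory receptors, read 10.20, 10.52, 10.01 and 10.27 with vehicle and 10.01, 10.25, 10.15 and 10.35 with TCDD, a difference of -0.06 (interval -0.34 to 0.22). Traf2, which recruits the cIAP ubiquitin ligases, differed by -0.09 and Traf5, its relative in OX40 signalling, by 0.09. Traf6, which serves CD40 and RANK and also Toll-like receptors, differed by 0.08, and Tradd, the death domain adaptor of TNF receptor 1, by 0.02.

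Genes that act beside or after the receptors were described from 4 further lists with 68 measured genes. With TCDD 2 rose (Mlkl and Tnip3), 1 fell (Rel) and 65 were not called; with Cl-BBQ 1 rose (Mlkl) and 67 were not called. Over all genes 1.24% and 0.196% were called. The median difference was -0.03 with TCDD and -0.01 with Cl-BBQ. By list, the calls with TCDD were 2 of 21 genes of the receptor complex, cell death and ubiquitin chains, 1 of 19 NF-κB kinases, subunits and inhibitors, 0 of 13 NF-κB targets and 0 of 15 further superfamily genes. Of the 19, 15 lay lower and 4 higher with TCDD (median difference -0.06), where 47.9% of all genes lay lower. With Cl-BBQ 9 of them lay lower and 10 higher, where 45.2% of all genes lay lower. Of the 21, 11 lay lower with TCDD and 15 with Cl-BBQ. Of the 13 targets and of the 15 further superfamily genes, 7 each lay lower with either compound.

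Mlkl encodes the pore-forming effector of necroptosis, the lytic death that TNF receptors can start when caspases are blocked. It read 8.57, 8.54, 8.08 and 8.51 with vehicle, 9.30, 9.28, 9.55 and 9.44 with TCDD and 9.19, 9.05, 8.92 and 8.99 with Cl-BBQ, with no overlap between any of the groups. It rose 1.96-fold with TCDD (log2 difference 0.97, interval 0.74 to 1.19; limma adjusted p = 0.00014) and 1.53-fold with Cl-BBQ (0.61, interval 0.39 to 0.84; limma adjusted p = 0.0335). The Cl-BBQ call was lost without vehicle replicate 1 or 4, Cl-BBQ replicate 2 or 4, or TCDD replicate 2, after median centring and in a fit of 2 groups (limma adjusted p up to 0.1). Without Cl-BBQ replicate 3 it was 0.65 (limma adjusted p = 0.0374). TCDD exceeded Cl-BBQ by 0.36 (interval 0.13 to 0.58), without a call (limma adjusted p = 1).

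Tnip3 encodes a relative of the A20-binding inhibitors of NF-κB. It read 8.06, 8.14, 8.02 and 8.07 with vehicle, 8.51, 8.67, 9.12 and 9.17 with TCDD and 8.44, 8.71, 8.74 and 8.74 with Cl-BBQ. All treated arrays lay above the narrow vehicle range, and the TCDD arrays fell into a lower and a higher pair. Tnip3 rose 1.74-fold with TCDD (log2 difference 0.80, interval 0.53 to 1.06; limma adjusted p = 0.00245); with Cl-BBQ the difference was 0.59 (interval 0.32 to 0.85; limma adjusted p = 0.0869), and 0.56 without its replicate 3.

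Rel encodes c-Rel, the NF-κB subunit most tied to activated lymphocytes. It read 11.02, 11.01, 11.06 and 11.08 with vehicle, 10.80, 10.78, 10.84 and 10.85 with TCDD and 10.78, 10.90, 10.91 and 10.90 with Cl-BBQ, so both treated groups lay below vehicle. It fell 1.17-fold with TCDD (log2 difference -0.23, interval -0.33 to -0.12; limma adjusted p = 0.0282), and with Cl-BBQ the difference was -0.17 (interval -0.28 to -0.07; limma adjusted p = 0.254), and -0.18 without its replicate 3. The TCDD call was lost without each vehicle or TCDD array in turn except vehicle replicate 2, and after median centring (limma adjusted p up to 0.12).

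**Figure D4:**
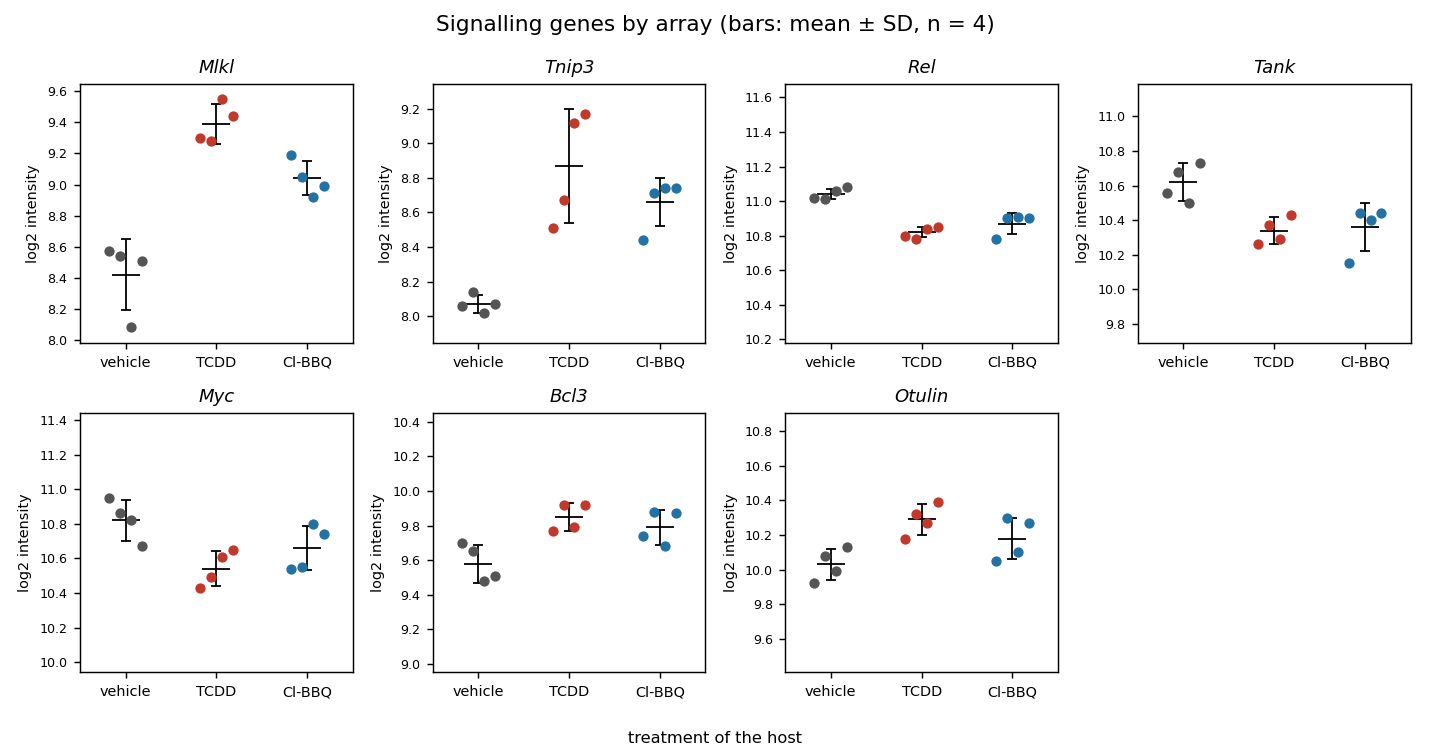
Log2 intensity (vertical axis) of 7 signalling genes in each array, by treatment of the host; points are arrays in order of replicate number, and bars give the mean ± SD of 4 arrays. Each vertical axis is centred on its own gene's range, with a smallest span shared by all panels. In Mlkl the 3 groups do not overlap, with Cl-BBQ between vehicle and TCDD. In Rel all treated arrays lie at or below 10.91, under the lowest vehicle array at 11.01.

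The 4 uncalled genes of these lists with the lowest unadjusted p were Tank, Myc, Bcl3 and Otulin. Tank, which binds TRAF proteins, differed by -0.28 with TCDD (interval -0.44 to -0.12; limma adjusted p = 0.118) and by -0.26 with Cl-BBQ (interval -0.42 to -0.10). Bcl3, an IκB family member that can act as a co-activator, differed by 0.27 with TCDD (interval 0.11 to 0.42; limma adjusted p = 0.129), Otulin, which removes linear ubiquitin chains, by 0.26 (interval 0.10 to 0.42; limma adjusted p = 0.141), and Myc by -0.28 (interval -0.44 to -0.11; limma adjusted p = 0.127).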

How the data were processed

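Whole-transcript mouse array values of donor CD4+ T cells were analysed for 12 arrays, 4 per group as titled. The deposited values are log2 intensities from RMA, a tool named in the submitters' processing notes; its version, the probe library file and the arrays it was run on were not stated in the labels, and the log2 scale was read from the values (2.49 to 14.2). Of 35556 probe sets, 21789 carried 1 symbol, and the probe set with the highest mean was kept per gene. The groups were fitted together across all genes in limma 3.58.1 (R 4.3.3) with 9 residual degrees of freedom, an intensity trend and no block, and tested two-sided. The fit was run on simulated data with known changes. Their noise was drawn separately for each gene and array, so deviations shared by the genes of an array were not covered. Figures used matplotlib 3.10.9. Precision rests on 4 arrays a group.

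The members and lists were chosen with earlier results of these data known. Every array is given for members called, not overlapping or at an unadjusted p under 0.05 and, from the further lists, for called genes; of the rest of those lists the 4 with the lowest unadjusted p are named. The other members given by array (Ltb, Fasl, Tnfrsf4, Tnfrsf18 and Traf1) and the motif TATAAA were chosen after the values were seen. Same-numbered TCDD and Cl-BBQ arrays deviated together from their group means (correlations over all genes of 0.606, 0.113, 0.157 and 0.365, all over 0.1), so the block is given beside that comparison; with vehicle, the pairs reached 0.182 at most and went down to -0.134. Differently numbered TCDD and Cl-BBQ arrays ran from -0.588 to 0.419. TCDD replicate 4 correlated more with Cl-BBQ replicate 2 (0.419) than with replicate 4. TCDD replicate 2 correlated more with Cl-BBQ replicate 4 (0.243) than with replicate 2. The pairing by number is therefore not certain. Alternatives were median centring, quantile normalization, no trend, array weights, fits of 2 groups, other uses of probe sets, a filter on the dimmest 25% of genes, the block, and each array left out.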

Additional observations from a re-analysis of the deposited data

Results flagged for a closer look

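In 6 of 108 groups of 4 arrays (36 genes in 3 groups), 1 array lay apart from the other 3 by more than Dixon's 95% critical value, which chance does in about 1 in 20 groups. Tnfsf13b in Cl-BBQ replicate 4 was at 6.81, where the others were all at 6.56. Tnfrsf1b in TCDD replicate 1 was at 9.08, against 9.40 to 9.46, and Traf6 in the same array at 9.95, against 9.98 to 9.99. Tnfrsf11a in TCDD replicate 2 was at 6.79, against 7.01 to 7.06. In Cl-BBQ replicate 1, Tnfrsf25 was at 7.86, against 8.03 to 8.06, and Traf2 at 8.60, against 8.88 to 8.92. With all arrays, 0 of these genes were called by limma and 0 had an unadjusted p under 0.05 in any comparison.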

How the results depend on the processing

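The 6 ligands lower with TCDD and the 5 lower with Cl-BBQ at an unadjusted p under 0.05 kept that direction in all 21 alternatives run. The count of called members with TCDD was 1 (Lta) without an intensity trend or with every probe set tested alone. It was 3 after quantile normalization (Lta, Tnf and Tnfsf4) and with array weights (Lta, Tnf and Tnfsf11). A fit of 2 groups gave 4 (Lta, Tnf, Tnfsf4 and Tnfsf8), and the replicate block gave 5 (Lta, Tnfsf4, Tnf, Tnfsf11 and Tnfsf8). With 1 array left out the count was 0 to 4. The 4 (Lta, Tnf, Tnfsf4 and Tnfsf8) were called without Cl-BBQ replicate 1. Over all genes the count was 391 with array weights, 397 with the block and 150 to 321 with 1 array left out. With Cl-BBQ, members called were 1 after quantile normalization (Lta), 2 with the block (Tnfsf4, limma adjusted p = 0.00393, and Tnfsf8, 0.0342) and 0 to 1 with 1 array left out; over all genes they were 13 after median centring, 96 after quantile normalization, 18 without a trend, 11 in a fit of 2 groups, 111 with the block and 3 to 61 with 1 array left out, against 39. For vehicle the numbers are not shown to pair the arrays; the block also put Tnfrsf18 higher with TCDD at an unadjusted p under 0.05. Between the compounds the genes called were 3, and 0 after quantile normalization, without a trend or in a fit of 2 groups, 9 with array weights, 5 with the block and 0 to 7 with 1 array left out; members called stayed at 0. The cause was not tested, save that fewer arrays enter where 1 is left out. Mlkl and Tnip3 kept their TCDD calls in all 21.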
